A study of Mus musculus with 10 samples.

Results

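The p53 gene set described here holds 10 genes of the mouse, chosen by name from 55020 lines of the deposited expression table. They are Trp53, which encodes the transcription factor p53, and Mdm2, Ccng1, Bax, Bbc3, Pmaip1, Sesn2, Phlda3, Zmat3 and Trp53inp1, each known as a direct p53 target. Every symbol stood on 1 line, and all 10 genes had a mean of at least 1 FPKM (fragments per kilobase of transcript, scaled to the mapped fragments of the library), the minimum for testing, which 14496 lines reached. RNA was sequenced from 5 tumours of GSK343-treated mice and from 5 tumours of mice given vehicle. All 10 tumours were of Hepa1-6 cells, a mouse hepatoma line, placed under the skin of C57/BL6 mice and grown for 4 weeks. Titles that begin with G name GSK343, while those that begin with C were taken as vehicle by elimination. GSK343 blocks the enzyme EZH2, which methylates histone H3 in the Polycomb system. An antibody against asialo-GM1, which depletes natural killer cells, and a control antibody are also named for the experiment, but the labels do not say which tumour received which. Neither the age of the mice nor the dose is stated in the labels, and nothing ties a tumour to its own mouse, so that p-values measure the spread between these samples.

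p53 is a transcription factor that is held at a low level in unstressed cells by Mdm2, a ubiquitin ligase that marks it for degradation. DNA damage and other stresses stabilise the p53 protein, so that its activity is set mostly by protein stability and less by the amount of Trp53 mRNA. Active p53 binds a motif made of 2 decamers, raises its own inhibitor Mdm2 in a feedback loop, and induces genes of cell cycle arrest, apoptosis, metabolism and repair. The levels of its targets are therefore a common reading of p53 activity in tumours, and the mRNA of Trp53 alone is not.

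The p53 decamer has 3 purines, a C, a pair of A or T bases, a G and 3 pyrimidines. It was searched in promoter windows of 300 bases, 250 before and 50 after each transcription start (RefSeq, GRCm38.p6, the assembly that mm10 denotes). The consensus reads alike on both strands, so 1 search covers both. Of the 10 genes, Pmaip1, Zmat3 and Trp53inp1 had no window. The other 7 had at least 1 window, and 4 of those 7 (Trp53, Mdm2, Ccng1 and Bax) held a decamer. Counted by window, with several windows of Bbc3, 4 of their 9 windows (44.4%) held a decamer, beside 8.36% of all 32851 windows. The sequences below show where the decamer lies in these genes, whose levels are followed in the results. A single decamer is only a part of the motif that p53 binds, and none of the 9 windows held 2 exact decamers. Over 20 bases the closest match departed from the consensus at 3 positions in Trp53, 5 in Mdm2 and 3 in Bax. Each is 80 bases long, is given 5′ to 3′ on the strand of the gene, ends before the transcription start, and has its exact decamers in capitals.
Trp53: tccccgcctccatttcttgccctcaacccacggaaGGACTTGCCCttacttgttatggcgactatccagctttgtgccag
Mdm2: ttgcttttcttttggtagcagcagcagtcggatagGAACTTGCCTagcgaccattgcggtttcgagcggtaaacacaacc
Ccng1: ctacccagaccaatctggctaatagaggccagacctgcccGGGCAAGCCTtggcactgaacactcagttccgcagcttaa
Bax: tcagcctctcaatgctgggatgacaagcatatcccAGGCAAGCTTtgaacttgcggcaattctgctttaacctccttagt
Cdkn1a: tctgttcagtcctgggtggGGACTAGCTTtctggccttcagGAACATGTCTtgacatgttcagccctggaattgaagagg

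The windows lie at chr11:69580249-69580328 on the plus strand for Trp53 and at chr10:117710900-117710979, chr11:40755432-40755511 and chr7:45467055-45467134 on the minus strand for Mdm2, Ccng1 and Bax. The decamers begin 75 bases before the start in Trp53, 186 in Mdm2, 185 in Ccng1 and 201 in Bax. In Ccng1 the capitals are the right part of a full site of 20 bases, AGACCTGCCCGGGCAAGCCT, which departs from the consensus at 1 position. A site of 20 bases with at most 1 departure occurred in 0.0883% of all windows, and among the p53 genes only in Ccng1. Cdkn1a, which encodes the cell cycle inhibitor p21 and is not among the 10 genes, is shown for comparison (chr17:29090887-29090966, plus strand). This sequence, from the window of the start at 29090979, held 2 decamers 12 bases apart and the site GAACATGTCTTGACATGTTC, again with 1 departure. Another Cdkn1a window, of the start at 29093769, held no exact decamer, and its closest 20 bases departed at 5 positions. Windows of Sesn2, Phlda3 and Bbc3 held no exact decamer. These matches describe letters only and do not show that p53 bound there. The search for sites of 20 bases was added after the decamers had been seen.

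The FPKM of a tumour summed to between 574547 and 623397, and 13985 to 14714 lines reached 1 FPKM. As FPKM is already scaled to the library, its sum does not measure library size. If the weak steps of the low values are single reads, the libraries held 38.4 M (mega) reads in vehicle replicate 6 to 50.8 M in GSK343 replicate 1. This inference gives no counting error for a gene. The hepatoma markers Afp (1465 to 2154 FPKM in GSK343 and 1954 to 2424 in vehicle tumours) and Alb were high in every tumour, whereas H19 and Igf2 did not exceed 5.74 and 4.10 FPKM. Of 13 markers of the tumour line 10 had a fold change below 0, beside 52.4% of all lines, and 4 were lower at an unadjusted p under 0.05, beside 6.86%, and their median log2 fold change was -0.18. The tumours are bulk tissue, in which fewer cells of a type and less RNA per cell cannot be told apart. All 10 pan-leukocyte markers had a positive fold change and 9 had an unadjusted p under 0.05, beside 10.7% of all lines in that direction, although none passed the adjusted threshold. Their FPKM summed to 559 to 954 in GSK343 tumours and 264 to 794 in vehicle tumours. Vehicle replicate 2, at 794, lay within the GSK343 range, above the other vehicle tumours at 264 to 485. Macrophage markers summed to 1049 to 2114 in GSK343 tumours and to 479 to 1865 in vehicle tumours. Skeletal muscle markers summed to 59.4 to 433 in GSK343 tumours and to 2.79 to 105 in vehicle tumours. Fibroblast markers summed to 1437 to 2215 and 1505 to 1890 in the same order, of which Dcn alone held 910 to 1203 and 996 to 1291. Endothelial markers summed to 49.0 to 68.1 and 44.0 to 64.4, and keratinocyte markers to 1.98 to 28.4 and 3.08 to 131. At an unadjusted p under 0.05, 7 of 8 skeletal muscle, 8 of 11 macrophage and 5 of 8 fibroblast markers were higher, beside 10.7% of all lines. Their median log2 fold changes were 1.66, 0.92 and 0.50, beside 0.78 for the pan-leukocyte markers. No tested endothelial or keratinocyte marker reached that p, and no marker of these lists passed the adjusted threshold. No marker of these lists was at 0 in all tumours. Mitochondrial transcripts took 7.17% and 7.11% of the sum in GSK343 replicates 3 and 5, and at most 5.05% elsewhere.

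None of the 10 p53 genes differed between the treatments at an adjusted p under 0.05, but 9 of them had a lower mean in GSK343 tumours. The smallest p-values among them were those of Mdm2, the inhibitor of p53, Sesn2, a stress-induced regulator of growth signalling, and Phlda3, a restraint on the kinase Akt. Bbc3, which encodes the apoptosis inducer PUMA, was the exception with a higher mean. By limma's moderated test 0 of 10 genes passed, beside 0.0828% of all lines tested (12 of 14496), 0.069% higher and 0.0138% lower. At an unadjusted p under 0.05 there were 3 genes, all lower, beside 6.86% of all lines in that direction and 17.6% in either. The groups overlapped for each of the 10 genes, while they did not overlap for 2.62% of all lines. The median log2 fold change (of FPKM + 1, GSK343 over vehicle) was -0.17 over the 10 genes and -0.01 over all lines, of which 52.4% lay below 0. As the genes were chosen by name with earlier results known, this median is a description and has no test. It lay close to the median of the tumour line markers, and the part of tumour cell content in it was not tested.

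**Figure D1:**
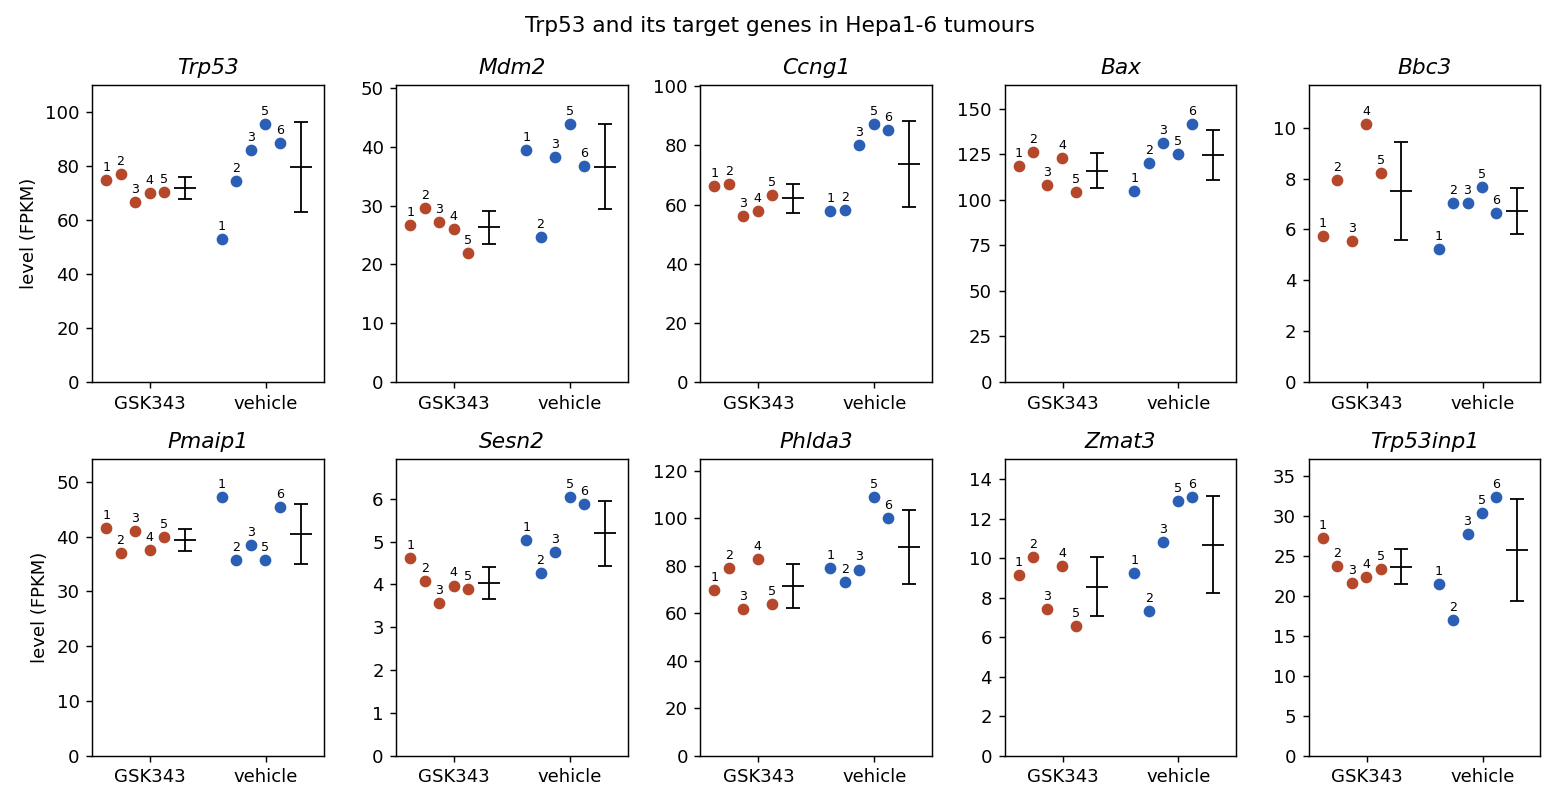
Level of each gene in FPKM (vertical axes, from 0) in the 5 GSK343 tumours (red, left) and the 5 vehicle tumours (blue, right), with the replicate number above each point and the mean ± SD beside it. The groups overlap in every panel, and the vehicle tumours spread more widely than the GSK343 tumours for all genes but Bbc3.

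Trp53 itself (ENSMUSG00000059552.13, mm10 chromosome 11, 69580359 to 69591873) measured 74.8, 76.9, 66.8, 70.1 and 70.4 FPKM in GSK343 replicates 1 to 5. It measured 53.01, 74.4, 86.0, 95.7 and 88.4 FPKM in vehicle replicates 1, 2, 3, 5 and 6. The GSK343 tumours lay close together inside the vehicle range, which ran from a low tumour, replicate 1, to a high one, replicate 5. The means were 71.8 ± 4.04 FPKM in GSK343 and 79.5 ± 16.7 FPKM in vehicle tumours (SD, n = 5 each), a log2 fold change of -0.12 (95% interval -0.43 to 0.19, limma adjusted p = 0.688). Without vehicle replicate 1 the log2 fold change was -0.25, and without vehicle replicate 5 it was -0.04. A processed pseudogene, Trp53-ps, averaged 0.815 FPKM, and reads shared with it cannot be told apart.

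Mdm2 (ENSMUSG00000020184.15, chromosome 10, 117688875 to 117710758) had the largest fold change of the 10 genes and the smallest p. It measured 26.7, 29.6, 27.3, 26.02 and 21.9 FPKM in GSK343 replicates 1 to 5, against 39.6, 24.7, 38.3, 43.97 and 36.7 FPKM in vehicle replicates 1, 2, 3, 5 and 6. All GSK343 tumours lay below 4 of the 5 vehicle tumours, and vehicle replicate 2 alone lay among them. The means were 26.3 ± 2.80 and 36.7 ± 7.20 FPKM (GSK343 and vehicle, SD, n = 5 each), a log2 fold change of -0.45 (SE 0.142, 95% interval -0.76 to -0.13, unadjusted p = 0.00987, limma adjusted p = 0.201). Without vehicle replicate 2 the log2 fold change was -0.58 and Mdm2 passed (limma adjusted p = 0.0465). In that setting 98 of 14490 lines passed, against 12 of 14496 with all 10 tumours. With the mean log2 level of the 10 pan-leukocyte markers as a covariate the log2 fold change of Mdm2 was -0.14 (limma adjusted p = 0.9998). The ratio of Mdm2 to Trp53 was 0.357, 0.384, 0.408, 0.371 and 0.311 in the GSK343 tumours and 0.746, 0.332, 0.446, 0.459 and 0.415 in the vehicle tumours, in the same order. Vehicle replicate 1, with the lowest Trp53 and the second highest Mdm2, had the highest ratio.

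Ccng1 encodes cyclin G1, a p53-induced protein that brings the phosphatase PP2A to Mdm2. The gene (ENSMUSG00000020326.7, chromosome 11, 40748552 to 40755311) measured 66.4, 66.9, 56.0, 57.8 and 63.3 FPKM in GSK343 replicates 1 to 5, against 57.7, 58.2, 80.1, 87.3 and 85.1 FPKM in the vehicle tumours. Vehicle replicates 3, 5 and 6 lay above all GSK343 tumours, while vehicle replicates 1 and 2 lay within their range. The means of 62.1 ± 4.97 and 73.7 ± 14.6 FPKM (SD, n = 5 each) differed by a log2 fold change of -0.22 (limma adjusted p = 0.396), with a 95% interval of -0.51 to 0.07.

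The 3 apoptosis genes had fold changes near 0, with p-values far from the threshold. Bax encodes a pore-forming protein of the outer mitochondrial membrane, and Bbc3 and Pmaip1 encode PUMA and NOXA, BH3-only proteins that act upstream of it. Bax (chromosome 7, 45461697 to 45466898) averaged 116 ± 9.47 FPKM in GSK343 tumours (range 104 to 126) and 125 ± 13.8 FPKM in vehicle tumours (range 105 to 142; limma adjusted p = 0.589). Its log2 fold change was -0.10, and it became -0.16 when vehicle replicate 1 was left out, -0.05 for vehicle replicate 6 and -0.06 for GSK343 replicate 5. Its exons overlap those of Gm45808 on the same strand, which averaged 0.294 FPKM. Pmaip1 averaged 39.4 ± 2.06 FPKM in GSK343 tumours (36.9 to 41.5) and 40.5 ± 5.45 FPKM in vehicle tumours (35.6 to 47.1), with a 95% interval of the log2 fold change from -0.23 to 0.17. The GSK343 values all lay inside the vehicle range (limma adjusted p = 0.891).

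Bbc3 (chromosome 7, 16308393 to 16318205) was higher in 3 GSK343 tumours than in any vehicle tumour. It measured 5.73, 7.94, 5.53, 10.2 and 8.22 FPKM in GSK343 replicates 1 to 5, against 5.24, 7.04, 7.03, 7.67 and 6.64 FPKM in the vehicle tumours. The other GSK343 tumours, replicates 1 and 3, lay below 4 of the 5 vehicle tumours, so the groups overlapped. The log2 fold change was 0.12 (95% interval -0.22 to 0.46, limma adjusted p = 0.714), and Bbc3 was the gene with the widest spread among GSK343 tumours, at a coefficient of variation of 25.6%. Its log2 fold change was 0.01 without GSK343 replicate 4 and 0.04 without vehicle replicate 1, against 0.21 without GSK343 replicate 3 and 0.20 without GSK343 replicate 1.

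Sesn2, which encodes sestrin 2, an inhibitor of the growth kinase complex mTORC1, came closest to a full separation. The gene (chromosome 4, 132492032 to 132510501) measured 4.61, 4.09, 3.58, 3.97 and 3.89 FPKM in GSK343 replicates 1 to 5, against 5.03, 4.26, 4.76, 6.03 and 5.88 FPKM in the vehicle tumours. Of the GSK343 tumours 4 lay below every vehicle tumour, and only GSK343 replicate 1 and vehicle replicate 2 crossed. The means were 4.03 ± 0.376 and 5.19 ± 0.753 FPKM (SD, n = 5 each; log2 fold change -0.29, SE 0.0990, 95% interval -0.51 to -0.08, unadjusted p = 0.0130, limma adjusted p = 0.206). At this low level the added 1 FPKM understates the fold. With the pan-leukocyte covariate the log2 fold change was -0.13, and without vehicle replicate 2 it was -0.35 (limma adjusted p = 0.0726).

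Phlda3, whose product competes with Akt for membrane lipids, measured 69.98, 79.2, 61.8, 82.9 and 64.0 FPKM in GSK343 replicates 1 to 5, against 79.1, 73.0, 78.5, 109 and 100.2 FPKM in the vehicle tumours (chromosome 1, 135766119 to 135769136). GSK343 replicates 1, 3 and 5 lay below all vehicle tumours, and vehicle replicates 5 and 6 lay above all GSK343 tumours. The log2 fold change was -0.29 (95% interval -0.57 to -0.002, unadjusted p = 0.0489, limma adjusted p = 0.283). With the pan-leukocyte covariate it was 0.001 (SE 0.132), which gives no direction.

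Zmat3, an RNA-binding zinc finger protein that regulates splicing, and Trp53inp1, a stress-induced nuclear protein linked to autophagy, showed the same split among vehicle tumours. Zmat3 (chromosome 3, 32334792 to 32366014) ranged from 6.56 to 10.1 FPKM in GSK343 tumours (median 9.18) and from 7.33 to 13.1 FPKM in vehicle tumours (median 10.8; limma adjusted p = 0.403). Its log2 fold change was -0.28, and 0.08 with the pan-leukocyte covariate. Trp53inp1 (chromosome 4, 11156431 to 11174379) ranged from 21.7 to 27.2 FPKM in GSK343 tumours (median 23.3) and from 17.0 to 32.3 FPKM in vehicle tumours (median 27.7; limma adjusted p = 0.803). Its log2 fold change was -0.09, and 0.13 with the same covariate. In both genes vehicle replicates 3, 5 and 6 were the 3 highest of all tumours and vehicle replicate 2 was the lowest vehicle tumour.

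**Figure D2:**
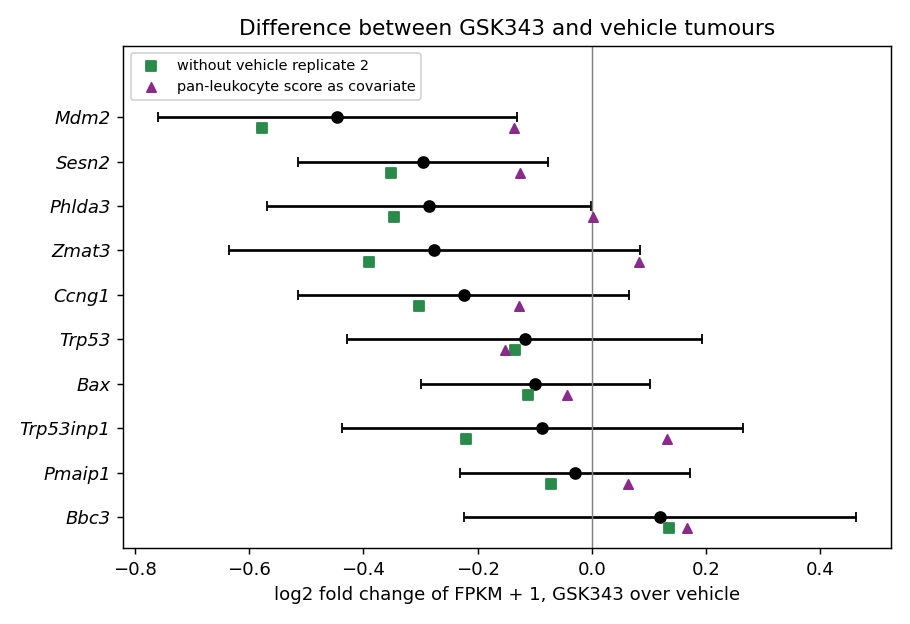
Log2 fold change of FPKM + 1, GSK343 over vehicle (horizontal axis), with its 95% interval (black), for the 10 genes. Squares give the value without vehicle replicate 2 and triangles the value with the pan-leukocyte covariate. The triangle lies at -0.14 for Mdm2, at 0.001 for Phlda3 and above 0 for Zmat3, Trp53inp1, Pmaip1 and Bbc3.

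The spread within the vehicle group was wide across the set. The coefficient of variation was larger in vehicle than in GSK343 tumours for 9 of the 10 genes, at 5.62% in GSK343 and 20.97% in vehicle tumours for Trp53 and at 10.6% and 19.6% for Mdm2. Vehicle replicate 5 held the highest value of all tumours for 5 genes and vehicle replicate 6 for 3. GSK343 replicates 3 and 5, the tumours with the most leukocyte and mitochondrial RNA, each held the lowest value for 3 genes. Vehicle replicate 1, with the least leukocyte RNA, and vehicle replicate 2 each held the lowest value for 2 genes. Neither the spread nor these counts were set beside all lines, so they cannot be called particular to the p53 genes. The part of leukocyte content in these differences between tumours was not tested. All 10 pan-leukocyte markers had a positive fold change, so the covariate fit cannot separate leukocyte content from treatment. In that fit the median log2 fold change of the 10 genes was -0.02, against -0.17 without the covariate. Without GSK343 replicates 3 and 5 it was -0.09, and without vehicle replicate 1 it was -0.28.

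In level, Bax stood at the top with 120 ± 12.1 FPKM (SD over all 10 tumours), and Phlda3 (79.8 ± 14.9 FPKM), Trp53 (75.7 ± 12.1 FPKM) and Ccng1 (67.9 ± 11.96 FPKM) followed. Phlda3 and Trp53 did not differ beyond their spread, as Phlda3 was the higher in 5 of 10 tumours. Pmaip1 (39.9 ± 3.92 FPKM), Mdm2 (31.5 ± 7.50 FPKM) and Trp53inp1 (24.7 ± 4.63 FPKM) came next. Zmat3 (9.63 ± 2.22 FPKM), Bbc3 (7.12 ± 1.48 FPKM) and Sesn2 (4.61 ± 0.831 FPKM) were the lowest, and Zmat3 exceeded Bbc3 in 8 of 10 tumours. These levels are per length of transcript, so genes can be set beside each other.

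Across tumours Ccng1 had the highest correlation with Trp53 of the 9 targets. Over all 10 tumours the log2 levels of Ccng1 and Trp53 had a Pearson r of 0.85 (permutation p = 0.00042, adjusted 0.00378 over 9 relations) and a Spearman rho of 0.98 (permutation p = 1e-05, the smallest that these permutations can give, adjusted 9e-05). Vehicle replicates 3, 5 and 6 held the highest values of both genes. The r was 0.95 without vehicle replicates 1 and 5, the tumours farthest from the median of Trp53, and 0.55 over the 7 tumours other than vehicle replicates 3, 5 and 6. Bax had an r of 0.79 (permutation p = 0.00565, adjusted 0.0254) and a rho of 0.78 (adjusted permutation p = 0.0315), with 0.87 without the same 2 tumours and 0.69 over the same 7. For Trp53inp1 the r was 0.66 (adjusted permutation p = 0.119) and the rho 0.85 (adjusted permutation p = 0.0122), but the r was 0.14 over the 7 tumours. The omission of those 3 tumours was added after the values had been plotted, because they lay apart at the upper end.

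Mdm2 did not follow Trp53 over all tumours (r = 0.30, permutation p = 0.401; rho = 0.39, permutation p = 0.261), but the r was 0.85 without vehicle replicates 1 and 5 and -0.74 over the 7 tumours other than vehicle replicates 3, 5 and 6. The relation thus rested on which tumours were taken, and vehicle replicate 1 combined the lowest Trp53 with high Mdm2. Pmaip1 had a negative r with Trp53 (-0.48, permutation p = 0.156), which was 0.31 without the same 2 tumours and -0.84 over the same 7. Neither r nor rho of Bbc3, Sesn2, Phlda3 and Zmat3 passed the adjusted threshold. The points of each relation share the library and the makeup of the tumour, and 179 other lines had a higher r with Trp53 than Ccng1 had once the group means were removed.

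**Figure D3:**
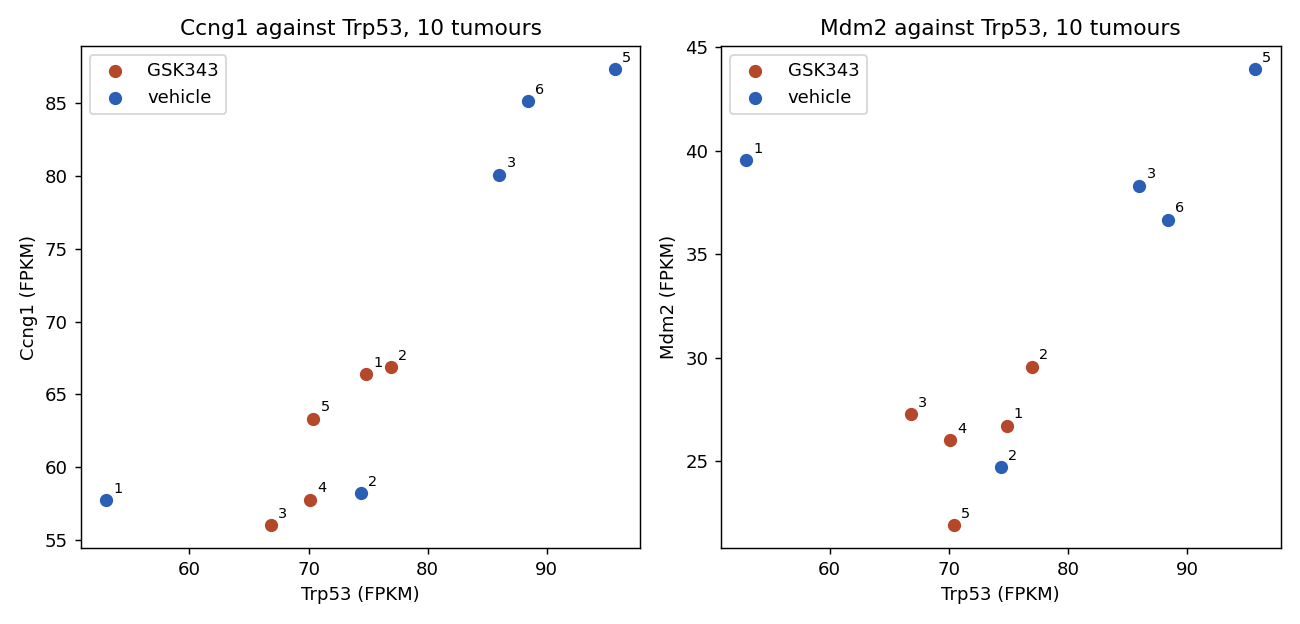
Ccng1 (left) and Mdm2 (right) in FPKM against Trp53 in FPKM for 5 GSK343 tumours (red) and 5 vehicle tumours (blue), with replicate numbers. Ccng1 rises with Trp53 along the 10 tumours, with vehicle replicates 3, 5 and 6 at the upper end, whereas vehicle replicate 1 has 53.01 FPKM of Trp53 with 39.6 FPKM of Mdm2.

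The lines most alike to these genes over the 10 tumours, by Pearson r of log2 levels after the group means were removed, were no p53 genes of the set. For Trp53 they were Mcm4 (0.98), Gtf2e1 (0.97) and Alg10b (0.97). For Ccng1 they were Haus2 (0.98), Etaa1 (0.97) and Bzw1 (0.97), while Trp53inp1 reached 0.92. For Mdm2 they were a line with a clone-based name (0.96), Trpm4 (0.94) and Plscr4 (0.94), and Zmat3 was the most alike of the p53 genes at 0.77. With 14496 lines and 10 tumours such values are a description and carry no p. Among the 45 combinations of the 10 genes the median r was 0.55 and 39 were above 0, from -0.63 for Bbc3 with Pmaip1 to 0.92 for Ccng1 with Trp53inp1. Such a median was not computed over all lines, so these values do not show that the p53 genes were more alike than other genes. Phlda3, for example, had an r of 0.55 with Trp53, and 2359 other lines had a higher one.

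Other known p53 targets were taken from a list of 43 genes, of which 40 were tested. By limma 0 passed the adjusted threshold in either direction, beside 0.0828% of all lines. Of the 40 genes, 24 had a fold change below 0 and 16 above, while 52.4% of all lines lay below 0. At an unadjusted p under 0.05 there were 6 lower and 4 higher, beside 6.86% and 10.7% of all lines. The median log2 fold change was -0.08. It was 0.02 with the pan-leukocyte covariate and -0.0009 without GSK343 replicates 3 and 5.

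For Cdkn1a, part of 1 promoter window is printed above, and its exons overlap an antisense annotation. Cdkn1a had 5 GSK343 values that all lay below the lowest vehicle value, a full separation seen in that direction for 1.2% of all lines. It measured 95.8, 111, 102, 109 and 106 FPKM in GSK343 replicates 1 to 5, against 130.4, 116, 114, 139.7 and 133.9 FPKM in the vehicle tumours (log2 fold change -0.27, 95% interval -0.44 to -0.10, unadjusted p = 0.00500, limma adjusted p = 0.191). Btg2, an antiproliferative target of p53 that is also an immediate early gene, separated the other way, at 32.0 to 57.5 FPKM in GSK343 tumours and 24.0 to 31.5 FPKM in vehicle tumours (limma adjusted p = 0.191). A full separation in that direction occurred for 1.42% of all lines. The 2 highest Btg2 values were those of GSK343 replicates 3 and 5, the tumours with the most leukocyte RNA. A part of leukocyte content in Btg2 was not tested.

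Ckap2, a spindle protein, measured 12.9 ± 1.67 FPKM in GSK343 and 17.3 ± 2.13 FPKM in vehicle tumours (limma adjusted p = 0.191). Perp, a desmosome protein that p53 induces in apoptosis, measured 25.7 ± 3.94 and 37.0 ± 7.26 FPKM (GSK343 and vehicle, limma adjusted p = 0.201), and vehicle replicate 2 had 24.1 FPKM beside 39.3 to 40.9 in the other vehicle tumours. The 4 targets higher at an unadjusted p under 0.05 were Btg2, Fas, Dram1 and Cyfip2, and the last 3 are named after their values were seen, as are Epha2, Gtse1 and Ei24, which with Cdkn1a, Ckap2 and Perp were the 6 lower. Fas, the death receptor, ranged from 14.0 to 22.6 FPKM in GSK343 and from 8.26 to 15.5 FPKM in vehicle tumours. Within the vehicle group the highest values of Fas, Dram1 and Cyfip2 were in replicate 2, the vehicle tumour with the most leukocyte RNA. The part of leukocyte content in these values was not tested.

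The regulators of p53 were near balance. Of 24 listed, 22 were tested, 11 had a fold change above 0 and 11 below, 0 passed the adjusted threshold (0.0828% of all lines) and 1 was lower at an unadjusted p under 0.05, or 1 of 22 beside 6.86% of all lines. That gene was Ppp1r13l, which encodes iASPP, an inhibitor of p53, at 3.61 ± 0.424 FPKM in GSK343 and 4.47 ± 0.501 FPKM in vehicle tumours (log2 fold change -0.25, limma adjusted p = 0.223). Mdm4, the partner of Mdm2, measured 20.02, 26.1, 19.2, 22.3 and 14.4 FPKM in GSK343 replicates 1 to 5, against 17.0, 19.3, 18.1, 14.6 and 15.8 FPKM in the vehicle tumours (limma adjusted p = 0.408). The groups overlapped, and the sign of its difference was opposite to that of Mdm2. Cdkn2a, which encodes the Mdm2 inhibitor Arf and the kinase inhibitor p16 from overlapping frames that the table does not separate, measured 28.7 ± 8.35 and 29.8 ± 5.01 FPKM (GSK343 and vehicle, limma adjusted p = 0.845).

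Further regulators with the next smallest p did not pass. Rpl5, a ribosomal protein that binds Mdm2 when ribosome assembly fails, measured 569 ± 118 FPKM in GSK343 and 745 ± 156 FPKM in vehicle tumours (limma adjusted p = 0.286), and its exons overlap Fam69a on the opposite strand. Ppp1r13b, which encodes the p53 cofactor ASPP1, measured 3.81 ± 0.385 and 4.53 ± 0.539 FPKM (limma adjusted p = 0.289). Atm, the kinase that signals DNA breaks to p53, measured 3.003, 2.70, 2.75, 2.71 and 2.69 FPKM in the GSK343 tumours, against 0.782, 1.09, 3.05, 3.48 and 1.11 FPKM in the vehicle tumours (limma adjusted p = 0.337). Its vehicle values fell into a low and a high set, with the GSK343 values between them.

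Active p53 is known to lower cell cycle genes through p21 and the DREAM repressor complex. Of 15 such genes, all tested, 12 had a fold change below 0, beside 52.4% of all lines, and 3 above. By limma 0 passed the adjusted threshold, beside 0.0828% of all lines, and 1 of 15 was lower at an unadjusted p under 0.05, a share near the 6.86% of all lines. That gene was Birc5, which encodes survivin, at 47.6 ± 6.50 FPKM in GSK343 and 58.2 ± 3.79 FPKM in vehicle tumours (log2 fold change -0.29, limma adjusted p = 0.202). Plk1, a mitotic kinase, measured 19.9 ± 2.47 and 22.8 ± 1.44 FPKM (GSK343 and vehicle, limma adjusted p = 0.297). Cdc20, an activator of the anaphase-promoting complex that shares exon sequence with Elovl1 on the opposite strand, measured 29.0 ± 3.58 and 33.4 ± 3.23 FPKM (limma adjusted p = 0.320). Cdk1 ranged from 27.3 to 75.0 FPKM in GSK343 tumours and from 31.3 to 111 FPKM in vehicle tumours (limma adjusted p = 0.360). The median log2 fold change of the list was -0.11, beside -0.01 over all lines.

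**Figure D4:**
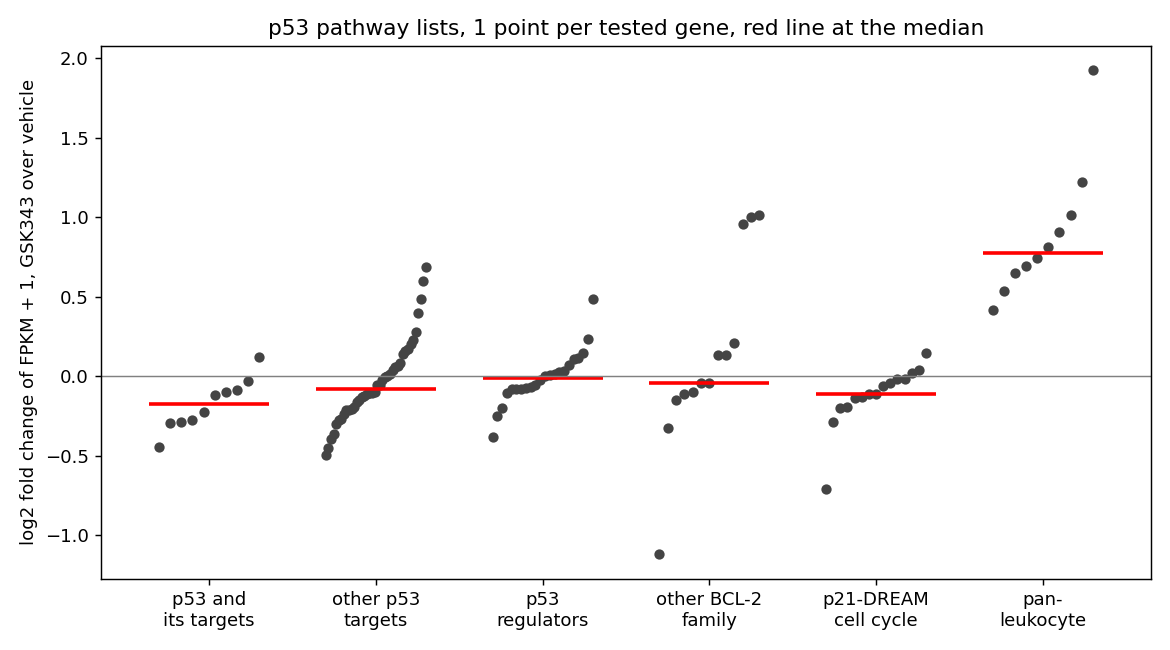
Log2 fold change of FPKM + 1, GSK343 over vehicle (vertical axis), of each tested gene in 6 lists, with the median of each list in red. The p53 genes have a median of -0.17 and the pan-leukocyte markers, at the right, of 0.78.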

How the data were processed

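PolyA RNA of 5 GSK343 and 5 vehicle tumours was analysed from the authors' deposited table, which holds 1 value per line and tumour. The deposited values were read as FPKM from the values themselves, as the header gives no unit. The submitters' processing notes name mm10 as the build and, among tools, StringTie 1.3.3b, HISAT2 2.1.0 and Trimmomatic 0.33. No option, annotation or strand setting is stated there. A further 10 columns had no name and no values. Products of FPKM and length of single-exon genes of more than 300 bases showed weak steps, and whole reads were not recovered, so no counting error is given.

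Levels were set to log2(FPKM + 1) and fitted by limma 3.58.1 in R 4.3.3, its prior variance following mean level, for 14496 lines (mean 1 FPKM or more). Calls were two-sided at a Benjamini-Hochberg adjusted p under 0.05 over all lines. Correlations used 100000 permutations (numpy 2.4.6). Overlaps came from GENCODE M21 and sequences from RefSeq. In simulated data of 14496 lines with 200 changed genes, all above 5 FPKM, 92% of 2-fold and 98% of 4-fold changes were recovered, and 4.04% of calls were false. The simulated lines varied independently of each other. The Benjamini-Hochberg cut also depends on the number of changed lines, and only 12 of 14496 lines passed in the tumours. The recovered shares therefore do not carry over to the tumours. Changes below 2-fold, which include those of all 10 p53 genes, were not simulated, so their recovery is unknown. The genes and lists were chosen with earlier results of these data known. Named genes were the 10 p53 genes, Cdkn1a, Mdm4, Cdkn2a, the 4 of smallest p in each p53 list and the 3 lines most alike to Trp53, Mdm2 and Ccng1. Alternatives covered filter, pseudocount, scaling, variance model, weights, replicate block, leukocyte covariate, summed lines, threshold and left-out tumours. Plots used matplotlib 3.10.9.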

Additional observations from a re-analysis of the deposited data

Results flagged for a closer look

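A value far from the rest of its treatment group was looked for in 28 genes, which gave 56 groups of 5 tumours. It was found in 3, and chance gives about 5% of such groups. None of them concerned the 10 p53 genes. Atm was 3.003 FPKM in GSK343 replicate 1, above 2.69 to 2.75 FPKM in the other GSK343 tumours. Perp was 24.1 FPKM in vehicle replicate 2, below 39.3 to 40.9 FPKM in the other vehicle tumours. Cdk1 was 75.0 FPKM in GSK343 replicate 5, above 27.3 to 40.9 FPKM in the other GSK343 tumours.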

How the results depend on the processing

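Among the 22 alternatives, no p53 gene passed, except Mdm2 without vehicle replicate 2, so the count of passing p53 genes was 0 to 1 with 1 tumour left out. The log2 fold changes of Trp53, Mdm2, Ccng1, Bax, Bbc3 and Sesn2 kept their sign in every alternative in which they were tested, with Mdm2 between -0.58 and -0.14; Sesn2 fell under the filter of 5 FPKM. With the pan-leukocyte covariate the sign turned for Phlda3 (0.0014, SE 0.132), Pmaip1 (0.064, SE 0.123), Trp53inp1 (0.13, SE 0.209) and Zmat3 (0.083, SE 0.172). Each of these values was smaller than its SE. In that fit the median of the wider targets moved to 0.016. It moved to -0.00088 without GSK343 replicates 3 and 5. The sign of Pmaip1 also turned with tumour weights (0.011) and without vehicle replicates 1 (0.027) or 6 (0.013), and that of Trp53inp1 without vehicle replicate 6 (0.0010). With 1 tumour left out the values ran from -0.072 to 0.027 for Pmaip1 and from -0.22 to 0.0010 for Trp53inp1. The cause was not tested. The lines called, 12 in all, numbered 6 with no filter, 3 at a mean of at least 5 FPKM, 7 with quantile normalization, 2 with the covariate, 33 at an adjusted p under 0.1 and 4 without GSK343 replicates 3 and 5. With 1 tumour left out they numbered 3 to 98, with 98 without vehicle replicate 2, 37 without GSK343 replicate 1, 3 without GSK343 replicate 3 or 4, and 4 to 6 without GSK343 replicate 2 or 5 or vehicle replicate 1, 5 or 6. With the replicate number as a block there were 2 lines called and no p53 gene, and the log2 fold change was 0.030 for Pmaip1 and 0.020 for Trp53inp1. The numbers did not pair the tumours, since deviations of same-numbered tumours correlated at -0.11, -0.33, 0.035 and -0.19 and no tumour matched its own number best. FPKM gives no counting error, so the limit set by depth is unknown.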

Other observations

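The BCL-2 family beyond Bax, Bbc3 and Pmaip1 held 15 listed genes, of which 13 were tested. By limma 0 passed the adjusted threshold, beside 0.0828% of all lines. At an unadjusted p under 0.05 there were 4 higher and 2 lower, beside 10.7% and 6.86% of all lines. The 4 higher genes included the Bcl2a1 copies named next, which are not separate observations, so their count is not read against that share. Bcl2a1d, Bcl2a1b and Bcl2a1a, near-identical copies of a survival gene of haematopoietic cells whose reads may be split between them (Bcl2a1b also shares exon sequence with Gm29094), ranged over 38.3 to 62.3, 60.4 to 95.5 and 30.4 to 51.8 FPKM in GSK343 tumours. In vehicle tumours they ranged over 12.8 to 40.04, 19.7 to 68.7 and 9.41 to 32.4 FPKM (limma adjusted p = 0.191, 0.191 and 0.192). Vehicle replicate 2, which had the most leukocyte RNA of its group, also had the highest vehicle value of each copy, at 40.04, 68.7 and 32.4 FPKM. For these copies too the part of leukocyte content was not tested. Bcl2l2, which encodes the survival protein BCL-W, measured 4.25, 3.08, 10.2, 0.9496 and 9.17 FPKM in GSK343 tumours, against 12.4, 9.62, 11.4, 10.1 and 10.8 FPKM in vehicle tumours (limma adjusted p = 0.219). The table also lists Gm20521, which overlaps its exons on the same strand.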
